A study of Owenia fusiformis with 11 samples.

Results

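The subject is a set of 127 genes of the annelid Owenia fusiformis with high normalized reads in the juvenile and a small fraction of them in the competent larva, out of 26960 genes in the deposited expression table. Values of all transcripts whose identifiers differ only in the number after the point were added up to give 1 value per gene. The genes were chosen by their normalized reads in these same libraries. A gene was included when the juvenile library had at least 1000 normalized reads and each competent larva library had at most 2% of that value. Their differences between the stages are a description and carry no test. The expression data comprised 3 RNA-seq libraries of whole animals. The juvenile, a post-metamorphic worm labelled at 3 weeks plus 1 h after fertilization, was represented by 1 library. The competent larva, a mitraria ready for metamorphosis and labelled at 3 weeks, was represented by 2 libraries. All animals came from in vitro fertilization of laboratory-kept adults, were reared in artificial sea water and were fed a mixture of algae. Mud was added to bring competent larvae to metamorphose into juveniles. Each competent larva library pooled many larvae, and the study's methods give no number of animals for the juvenile library. By the study's methods, samples that carry the same replicate number came from 1 fertilization, so the juvenile library and competent larva replicate 1 may share their parents.

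As background, the mitraria is the planktonic feeding larva of oweniid annelids and swims with a long band of cilia. The trunk of the future worm grows inside it as a rudiment. At metamorphosis this rudiment everts, larval structures are lost, and the juvenile settles on the sediment and begins to live in a tube. The deposited identifiers are not paired with gene names in the sources used here, and 0 of them were found among 27038 genes of a public annotation of the species. Functions and sequences were therefore not assigned, the stage labels were not checked against known marker genes, and genes are given by identifier.

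Normalized reads summed to 44094069 in the juvenile, and to 39675427 and 36714310 in competent larva replicates 1 and 2. Pearson's r across genes, which do not count as replicates, computed on log2(value + 1), was 0.901 between the juvenile and competent larva replicate 1, 0.867 between the juvenile and replicate 2, and 0.962 between the competent larva replicates. Values are normalized reads per gene, not divided by transcript length, so their order among genes is not an order of transcript number. The juvenile had no replicate, so its spread is unknown. In whole animals, fewer cells of a type and less RNA per cell cannot be told apart.

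To describe their levels, the 127 genes were first summed. They made up 2.92% of all normalized reads in the juvenile, against 0.0169% and 0.0283% in competent larva replicates 1 and 2. Their sum was 1287238 in the juvenile, and 6689 and 10386 in the competent larva libraries. The rule holds each competent larva sum to at most 2% of the juvenile sum, so this gap was fixed in advance. The limits selected 0.471% of all genes. Without competent larva replicate 1 the larger set that met the rule made up 5.25% of the juvenile reads, and without replicate 2 it made up 3.32%. The median gene of the set had 3280.4 normalized reads in the juvenile, against 23.4 and 21.7 in competent larva replicates 1 and 2. Over all genes these medians were 296 in the juvenile, and 260.4 and 237 in the competent larva. The median of the set thus lay above that of all genes in the juvenile, as the limits require, and below it in both competent larva libraries. The relative limit keeps competent larva values low but does not by itself place their median below that of all genes. Juvenile values ran from 1024 to 145036. Competent larva values ran from 0.678 to 547 in replicate 1 and from 0.356 to 1276 in replicate 2. The juvenile value was between 50.4 and 1452 times the higher competent larva value, with a median of 92.9. The lower end of this range is set by the 2% limit. Since the limit is relative, 14 of the 127 genes were still above the median of all genes in at least 1 competent larva library.

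**Figure D1:**
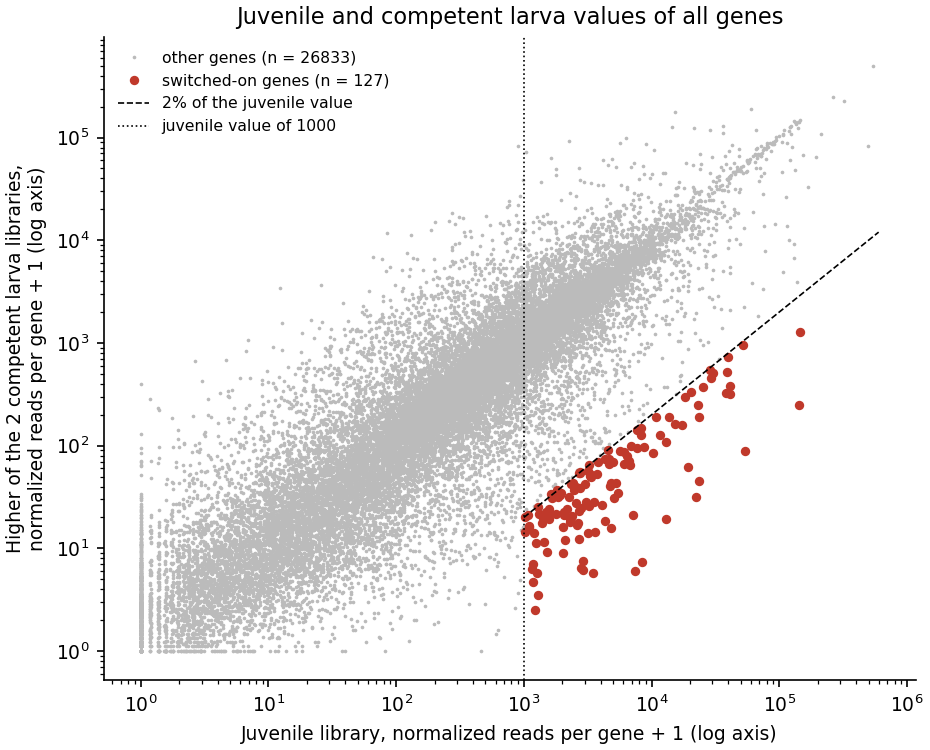
Each point is a gene, with the juvenile value on the x axis and the higher of the 2 competent larva values on the y axis, both as normalized reads plus 1 on log axes. The 127 switched-on genes (red) lie right of the dotted line at 1000 and below the dashed line at 2% of the juvenile value, apart from the band that holds most of the other 26833 genes (grey).

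No gene of the set was listed at 0 in either competent larva library. The same held for all 7138 genes with at least 1000 normalized reads in the juvenile. Over the whole table, 1120 genes were listed at 0 in replicate 1 and 408 in replicate 2. The higher of the 2 competent larva values was at most 0.1% of the juvenile value in 2 genes, above 0.1% and up to 0.5% in 22, above 0.5% and up to 1% in 32, and above 1% in 71. Most of the set therefore lay in the upper part of the allowed range, between 1% and 2%. The 2 genes with the lowest share were OFUSG17602 and OFUSG18182. OFUSG17602 had 7389 normalized reads in the juvenile, against 5.09 and 3.93 in competent larva replicates 1 and 2. OFUSG18182 had 8436 in the juvenile, against 2.22 and 6.41.

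The limits were sharp, and genes close to them differed little from those outside. The lowest juvenile values inside were 1024 at OFUSG26203 and 1027 at OFUSG24326. The highest outside among genes that met the share limit were 988 at OFUSG23748 and 984 at OFUSG06065. Altogether 26 genes with at least 500 and under 1000 normalized reads in the juvenile met the share limit. For the share itself, OFUSG21924 at 1.98% and OFUSG14698 at 1.98% were just inside, and OFUSG06995 at 2.01% and OFUSG17910 at 2.03% were just outside. A limit of 1% kept 56 genes and a limit of 5% admitted 241. Against competent larva replicate 2 alone, 216 genes met the rule, and against replicate 1 alone 156, so competent larva replicate 1 excluded 89 genes that replicate 2 would have admitted.

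The limits were also applied between the 2 competent larva replicates, with 1 library on the low side. Between the juvenile and a single competent larva library they gave 216 genes against replicate 2 and 156 against replicate 1. With the same limits, 0 genes had at least 1000 normalized reads in competent larva replicate 1 and at most 2% of that in replicate 2, and 0 genes did so in the opposite direction. The juvenile was sampled once, so the same comparison could not be made there. The counts of 0 therefore do not say how many genes of the set would remain with another juvenile library. In the reverse direction, 10 genes had at least 1000 normalized reads in both competent larva libraries and at most 2% of the lower value in the juvenile. Among the 7138 genes with at least 1000 normalized reads in the juvenile, the median ratio of the juvenile to the higher competent larva value was 1.07.

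Read number within the set was concentrated in few genes. The highest pair, OFUSG14382 and OFUSG19176, held 22.3% of the set's juvenile sum, and the 15 genes with the highest juvenile values held 58.5%. OFUSG14382 had 145036 normalized reads in the juvenile, against 262 and 1276 in competent larva replicates 1 and 2. OFUSG19176 had 142350.5 in the juvenile, against 248 and 5.56. OFUSG19177, the next identifier, had 53451 in the juvenile, against 87.5 and 4.89. These 3 genes differed in which competent larva library was higher, replicate 2 for OFUSG14382 and replicate 1 for the other pair.

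Several of the following genes resembled OFUSG14382 in having most of their residual competent larva reads in replicate 2. OFUSG10512 had 51721 normalized reads in the juvenile, against 278 and 946 in competent larva replicates 1 and 2. OFUSG10513 had 41058, against 39.5 and 381. OFUSG10154 had 41423, against 53.4 and 321. In all 3 the juvenile was more than 50 times higher than the higher competent larva library, as the rule requires, and replicate 2 was several times above replicate 1. OFUSG10152 had 39635 in the juvenile, against 148 and 735 in competent larva replicates 1 and 2. OFUSG18228 had 39102, against 244 and 519. OFUSG14141 had 37937, against 82.7 and 326. Replicate 2 was again the higher one in each.

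The remaining genes of the highest 15 had between 23505 and 30394 normalized reads in the juvenile. OFUSG05296 had 30394 in the juvenile, against 188 and 509 in competent larva replicates 1 and 2. OFUSG25563 had 29055, against 114 and 457. OFUSG09717 had 28916, against 547 and 303, and was the only one of this group with the higher value in replicate 1. OFUSG04188 had 25318 in the juvenile, against 9.81 and 373. OFUSG26417 had 23536, against 17.7 and 44.7. OFUSG06996 had 23505, against 27.5 and 190.4. Of the 15 genes, 12 had the higher residual value in competent larva replicate 2. Among all 640 genes with at least 10000 normalized reads in the juvenile, 27.3% were higher in replicate 2. In none of the 15 did a competent larva library come near the juvenile, as the rule requires.

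**Figure D2:**
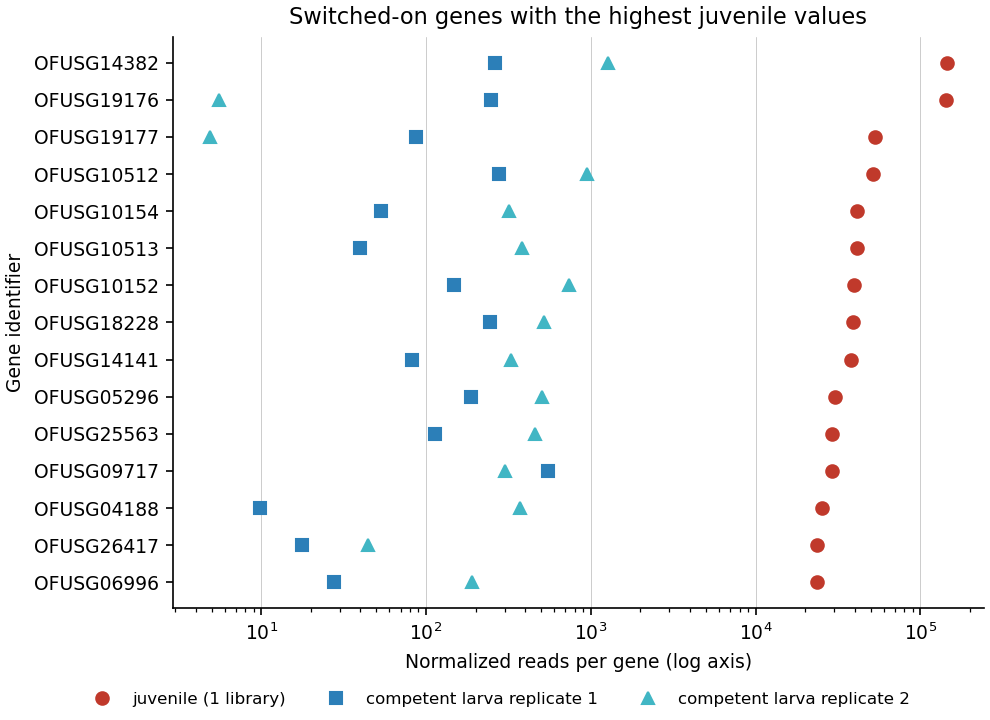
Normalized reads on a log axis for the 15 switched-on genes with the highest juvenile values, with the juvenile library (red circles) and competent larva replicates 1 (blue squares) and 2 (turquoise triangles). Every red circle lies at or above 23505, whereas no competent larva value exceeds 1276, and replicate 2 is the higher competent larva library in 12 of the 15 genes.

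Below the highest 15, juvenile values declined gradually. In all, 28 genes had at least 10000 normalized reads in the juvenile, 18 had between 5000 and 10000, 51 between 2000 and 5000, and 30 between 1000 and 2000. Among those above 10000, OFUSG15692 had the lowest share in competent larva replicate 1 of the whole set. It had 12922 normalized reads in the juvenile, against 0.678 and 18.3 in replicates 1 and 2. OFUSG26698, with 22369 in the juvenile against 30.7 and 8.83, and OFUSG15285, with 19435 against 6.49 and 61.2, were also under 0.5% in both. By contrast OFUSG20923, with 20280.9 in the juvenile against 329 and 329, kept 1.62% of its juvenile value in each competent larva library.

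The rule bounds both competent larva values from above but does not fix which is higher, so the residual values were compared between the 2 replicates. Replicate 1 was higher in 75 genes (59.1%) and replicate 2 in 52 (40.9%). Among all genes with at least 1000 normalized reads in the juvenile, 60.4% were higher in replicate 1, so the direction over the set was close to that of other genes. The split varied with the juvenile value. Replicate 2 was higher in 17 of the 28 genes with at least 10000 normalized reads in the juvenile (60.7%) and in 35 of the 99 genes below that (35.4%). Among all 640 genes with at least 10000 normalized reads in the juvenile, replicate 2 was higher in 27.3%. This is a comparison of 2 libraries, and the set's low values and its rule were part of it, so no test is given.

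The 2 replicates also lay further apart in the set than elsewhere. They differed more than 4-fold in 34 of the 127 genes (26.8%), against 3.99% of all genes with at least 1000 normalized reads in the juvenile. Genes outside the set with similar competent larva values were examined as well, since the set's competent larva values were low. With the higher competent larva value between 18.4 and 84.7, the middle range of the set, 17 of 63 genes of the set (27.0%) and 14.0% of 3708 other genes were more than 4-fold apart. Both directions occurred. OFUSG23141 had 4592 normalized reads in the juvenile, against 89.9 and 12.3 in competent larva replicates 1 and 2. OFUSG10352 had 1407, against 18.8 and 0.490. OFUSG26203 had 1024, against 13.5 and 0.366. These 3 had the largest excess of replicate 1, in percent of their juvenile value. The largest excess of replicate 2 was found in OFUSG14970, OFUSG03078 and OFUSG16453. OFUSG14970 had 2775 in the juvenile, against 3.72 and 53.5. OFUSG03078 had 1082, against 2.32 and 20.4, and OFUSG16453 had 2683, against 9.52 and 52.9. In all 6 genes both competent larva values stayed under 2% of the juvenile value, as the rule requires. The part of read number in these differences was not tested.

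**Figure D3:**
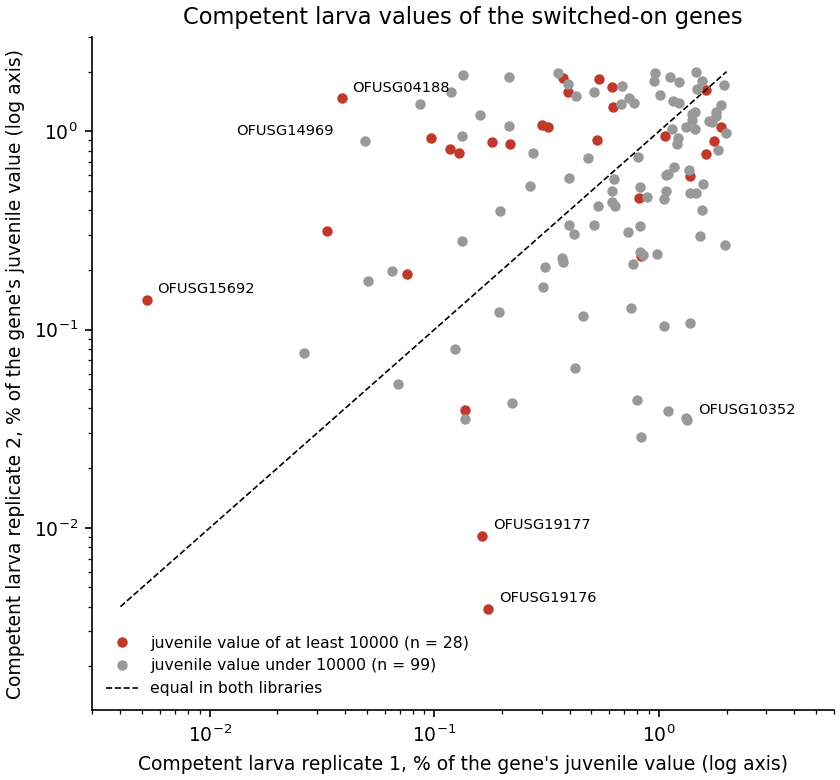
Values of the 127 switched-on genes in competent larva replicate 1 (x axis) and replicate 2 (y axis), each in percent of the gene's own juvenile value, on log axes. Red points have a juvenile value of at least 10000 (n = 28) and grey points a lower one (n = 99), and 17 of the red points lie above the dashed line of equality while OFUSG19176 and OFUSG19177 lie far below it.

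Identifiers in the table are numbered in series, and the numbers were not used by the rule. To examine whether the genes fell next to one another, each number was compared with its neighbours. Of the 127 genes, 21 (16.5%) had a gene of the set at the next or the preceding number, whereas 0.920% of all genes in the table had one. Within 2 numbers on either side, 27 genes (21.3%) had another gene of the set, against 1.76% of all genes. Within 10 numbers 35 genes (27.6%) had one, against 8.05% of all genes, so the excess was already present within 2 numbers. The 21 adjacent genes formed 9 runs, 3 of 3 genes and 6 of 2 genes. Against competent larva replicate 2 alone 38 of 216 genes were adjacent, and against replicate 1 alone 37 of 156, in both cases within a larger set. A 1% limit left 7 adjacent genes among 56, and a 5% limit gave 68 among 241. The share of all genes beside a set grows with its size and was counted only for the set of 127. Whether consecutive numbers lie next to each other on a chromosome was not established from these files.

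The runs of 3 were OFUSG10512 to OFUSG10514, OFUSG10152 to OFUSG10154 and OFUSG14883 to OFUSG14885. In the first, OFUSG10514 had 3280.4 normalized reads in the juvenile, against 14.0 and 49.4 in competent larva replicates 1 and 2, beside the much higher values of OFUSG10512 and OFUSG10513 given above. The flanking genes were within the 2-fold range of competent larva replicate 1. OFUSG10511 had 950.2 in the juvenile, against 890.04 and 686. OFUSG10515 had 1503 in the juvenile, against 779 and 598.

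The run from OFUSG10152 lay in a longer stretch of genes with higher juvenile values. Its middle gene OFUSG10153 had 4676 normalized reads in the juvenile, against 36.2 and 64.8 in competent larva replicates 1 and 2. Of the 13 genes from OFUSG10142 to OFUSG10154, 11 exceeded both competent larva libraries more than 2-fold in the juvenile, and 5 of these belonged to the set. Besides the run, these were OFUSG10143, with 3771 in the juvenile against 46.3 and 52.3, and OFUSG10149, with 1668 against 15.8 and 29.9. OFUSG10148, with 3499.8 in the juvenile against 32.3 and 111, and OFUSG10150, with 3774 against 13.1 and 106, missed the set because replicate 2 reached 3.17% and 2.80%. The exceptions were OFUSG10145, with 104 in the juvenile against 131 and 124, and OFUSG10146, with 26.3 against 19.6 and 6.04. The stretch ended at OFUSG10155, which had 2099 in the juvenile, against 1380 and 1244.

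The third run had some of the lowest residual values of the set. OFUSG14883 had 1290 normalized reads in the juvenile, against 0.835 and 2.55 in competent larva replicates 1 and 2. OFUSG14884 had 2929, against 1.49 and 5.18. OFUSG14885 had 2919, against 6.50 and 1.24. All 3 thus had at most 0.223% of their juvenile value in either competent larva library. The preceding gene, OFUSG14882, had 2094 in the juvenile, against 56.3 and 18.0, and fell just outside at 2.69%. The gene after the run, OFUSG14886, had 146 in the juvenile, against 171 and 154. OFUSG14888 had 852 in the juvenile, against 1.61 and 0.122, and was left out only because of its juvenile value.

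Among runs of 2, OFUSG19176 and OFUSG19177 had the highest summed juvenile value, 195801. Their residual shares of the juvenile value were 0.174% and 0.164% in competent larva replicate 1, and 0.00391% and 0.00914% in replicate 2. The flanking genes had much lower juvenile values. OFUSG19175 had 1409 normalized reads in the juvenile, against 1109 and 1236. OFUSG19178 had 12.8 in the juvenile and was listed at 0 in both competent larva libraries, so it too was higher in the juvenile, at a low value. The run of OFUSG18182 and OFUSG18183 combined one of the lowest residual shares with a gene near the limit, since OFUSG18183 had 2404 in the juvenile, against 29.7 and 42.6. Its flanking genes OFUSG18181, with 573 in the juvenile against 638 and 929, and OFUSG18184, with 4228 against 4576 and 4012, differed by less than 2-fold between the juvenile and either competent larva library.

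**Figure D4:**
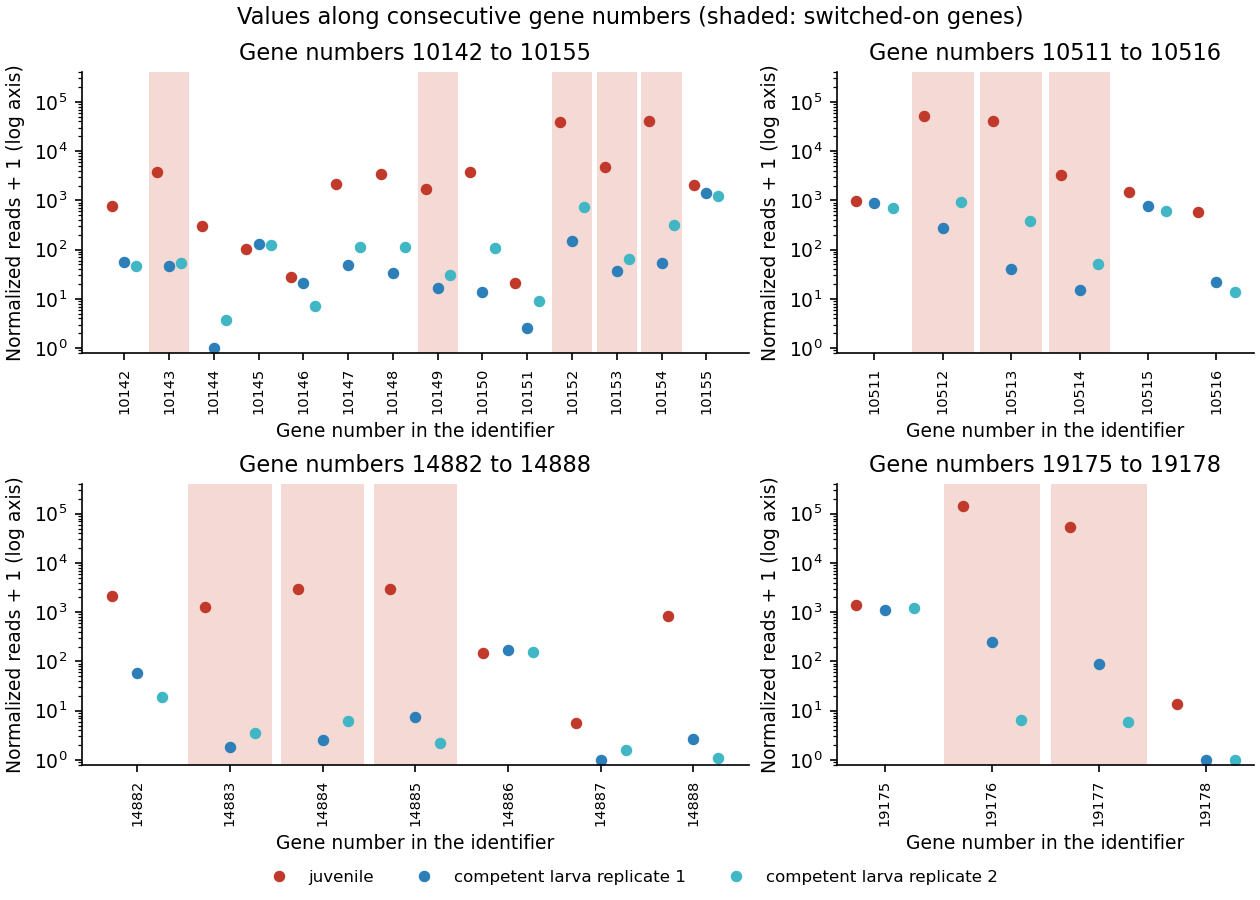
Normalized reads plus 1 (log axis) in the juvenile (red), competent larva replicate 1 (blue) and replicate 2 (turquoise) for genes with consecutive identifier numbers, with switched-on genes shaded. From OFUSG10142 to OFUSG10154, 11 of 13 genes are more than 2-fold higher in the juvenile, whereas the genes directly beside the run at OFUSG10512 have values much closer to each other in the 3 libraries.

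Genes of a run also tended to share the competent larva library with the higher residual value. In 8 of the 9 runs all genes were higher in the same library, replicate 2 in 5 runs and replicate 1 in 3, and OFUSG14885 was the exception. Counted as pairs of adjacent genes of the set, 11 of 12 pairs shared the direction, against 55.1% of all 26406 adjacent pairs in the table. Pseudoalignment divides reads among similar transcripts, and the similarity of genes within a run was not tested.

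Neighbouring genes outside the set were then examined. The rule had left them out on their own values, some of them narrowly, but did not use their place beside a switched-on gene. Of 227 such genes, 223 had a value above 2 in at least 1 library. Of these, 84 (37.7%) had a juvenile value more than 2-fold above each of the competent larva values, whereas 17.4% of all 25969 genes above that level did, and 16.9% of the 25842 among them that were outside the set. In the opposite direction, 22 of the 223 (9.87%) were more than 2-fold lower, against 11.0% of all. With competent larva replicate 2 alone, 50.1% of the neighbours of the larger set exceeded it more than 2-fold, against 27.7% of all genes. The excess was largest at the next number. Among genes 2 to 7 numbers away, between 21.5% and 26.1% were higher in the juvenile, and among genes 8 to 20 numbers away between 15.1% and 19.5%. The share of lower genes stayed between 7.30% and 14.2% at all 20 distances.

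**Figure D5:**
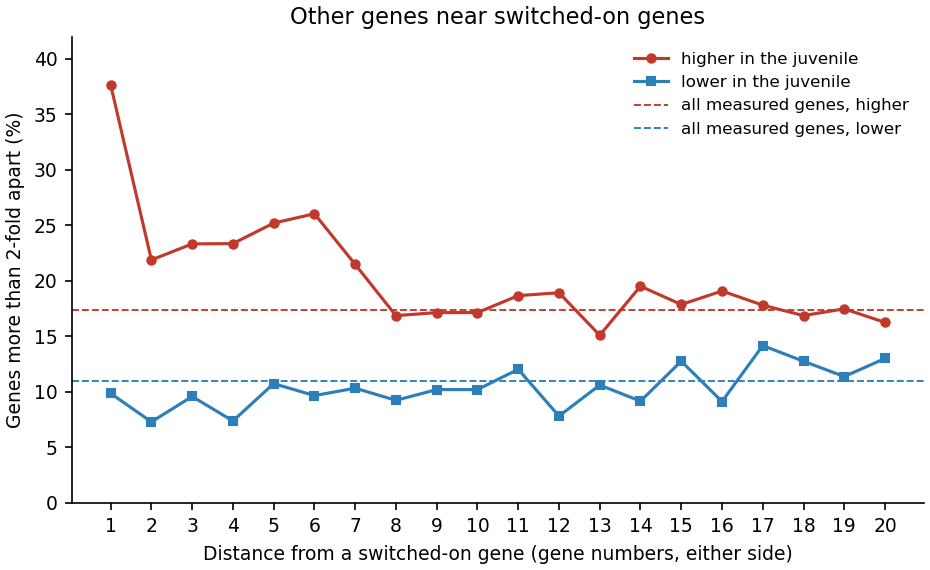
Percent of genes outside the set whose juvenile value was more than 2-fold above (red) or below (blue) each competent larva value, by their distance in gene numbers from a switched-on gene on either side. The share of higher genes is 37.7% at a distance of 1 and lies near the dashed line for all genes (17.4%) from a distance of 8, and the share of lower genes stays near its dashed line (11.0%).

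Other genes with higher juvenile values also had such neighbours. Of the places next to any gene outside the set with a juvenile value more than 2-fold higher, 34.9% held another such gene, and 35.0% where that gene had at least 1000 normalized reads in the juvenile. Of the 250 places next to a switched-on gene, 111 (44.4%) were more than 2-fold higher, genes of the set included. Altogether 88 of the 127 genes (69.3%) had at least 1 neighbour, inside or outside the set, with a juvenile value more than 2-fold higher. The share was 53.5% among the 4379 other genes that were themselves more than 2-fold higher, and 29.2% among all 25969 genes above the minimum value.

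The neighbours that were higher in the juvenile covered a wide range of values. Of the 84, 29 had at least 1000 normalized reads in the juvenile, 32 had between 100 and 1000, and 23 had less. Among those above 1000, 14 had between 2% and 5% of the juvenile value in the higher competent larva library and so narrowly missed the set. Over the whole table the 2% limit admitted 127 genes and a 5% limit 241. OFUSG14381, next to OFUSG14382, had 16809 normalized reads in the juvenile, against 108 and 424 in competent larva replicates 1 and 2. OFUSG14971, which follows the run of OFUSG14969 and OFUSG14970, had 16981, against 176 and 484. OFUSG06995, next to OFUSG06996, had 3953, against 46.5 and 79.4. In each of these examples the residual share, between 2.01% and 2.85%, was set by replicate 2. In others of the 14 it was set by replicate 1, as in OFUSG14882 at 2.69%. A further 12 of the 223 neighbours met the share limit but had under 1000 normalized reads in the juvenile. Over the whole table of 26960 genes, 166 did so.

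Transcript models were examined last, because the rule used only their sum. Of the 127 genes, 109 had 1 transcript and 18 (14.2%) had several, close to the 13.6% of all genes. The 18 genes had 38 transcripts. In each gene the transcript with the highest juvenile value was more than 2-fold above each competent larva value, which the rule on the sum fixes for so few transcripts. Of the 20 other transcripts, 16 (80%) were so as well, against 51.0% of 655 such transcripts in other genes that were more than 2-fold higher. The sum limits these transcripts too in the competent larva, so the shares are a description. In 11 of the 18, a single transcript held over 90% of the juvenile value. OFUSG14382 was an extreme case, with 144976 normalized reads in the juvenile on OFUSG14382.2 and 59.9 on OFUSG14382.1. OFUSG10513 was the most evenly divided, with 25298 on OFUSG10513.1 and 15760 on OFUSG10513.2, and no value of either transcript exceeded 218.4 in the competent larva libraries. The 4 transcripts that were not more than 2-fold higher belonged to OFUSG18034, OFUSG21543 and OFUSG23271. In OFUSG21543, the gene of the set with the most transcripts, OFUSG21543.3 had 1972 normalized reads in the juvenile and was listed at 0 in both competent larva libraries, whereas OFUSG21543.1 was listed at 0 in the juvenile and had 15.1 and 0 in competent larva replicates 1 and 2. In OFUSG23271, OFUSG23271.2 had 7680 in the juvenile, against 51.6 and 61.9, while OFUSG23271.1 had 22.8, against 41.9 and 9.03. The reads that separated the stages thus fell on particular transcripts in these 2 genes, as far as pseudoalignment can divide reads among transcripts of 1 gene.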

How the data were processed

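RNA-seq of 2 competent larva libraries and 1 juvenile library was used. The authors trimmed reads, pseudoaligned them with kallisto 0.46.2 to the filtered gene models of their own chromosome-scale assembly and normalized the estimated reads between libraries with DESeq2 1.30.1, and the deposited values are this signal per transcript, not divided by length. Low values did not fall on whole multiples of the lowest value (25.7% to 30.7% came within a tolerance of 0.1), so reads, depth and counting intervals were not recovered and no count model was run. Another 24 expression columns, of other samples and earlier stages, were not analysed here, so expression before the competent larva is not given. The 8 ATAC-seq libraries were not used, because their peaks carry positions and no gene identifiers.

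Samples were grouped by their labels. The 31897 transcripts were summed to 26960 genes with pandas 2.3.3 in Python 3.11.15. Neighbours were genes whose numbers differed by 1. Higher or lower meant a juvenile value over 2-fold above or below each competent larva value, among genes above 2 in at least 1 library, without a pseudocount. The juvenile had 1 library and its contrast chose the genes, so no test was made. The rule and neighbour counts were checked on simulated data. Genes were named when among the 15 highest in the juvenile, in the 5 longest runs or beside these, nearest the limits, with the most transcripts, or furthest apart between the competent larva libraries. Others were chosen after their values were seen, namely OFUSG17602, OFUSG15692, OFUSG26698, OFUSG15285, OFUSG20923, OFUSG14381, OFUSG14971, OFUSG14888, OFUSG23271, OFUSG18034, OFUSG05996, OFUSG05997, OFUSG04962, OFUSG18141 and the genes from OFUSG10142 to OFUSG10155 outside the run. The members and lists were chosen with earlier results of these data known. Alternatives changed the limits, the scaling, the filter, the pseudocount, the summing and the competent larva libraries used.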

Additional observations from a re-analysis of the deposited data

How the results depend on the processing

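The number of switched-on genes was 127 as reported. A competent larva limit of 1% gave 56 and one of 5% gave 241. Rescaling the libraries by the median ratio lowered it to 113, all of them among the 127, since the median gene was 0.11 higher in the juvenile on the log2 scale as deposited. Quantile normalization gave 101. The set's share of the juvenile reads was 2.92%, and became 2.96% with a juvenile limit of 500, 1.68% with the 1% limit, 5.26% with the 5% limit and 2.59% after rescaling. Adjacent genes numbered 21 of 127, against 7 of 56 with the 1% limit and 68 of 241 with the 5% limit. The share of all genes beside these other sets was not counted. Leaving out either competent larva replicate gave 156 to 216 genes, a share of 3.32% to 5.25%, 37 to 38 adjacent genes and 39.1% to 50.1% of neighbours higher in the juvenile. The share over all genes rose as well. Against replicate 1 alone 39.1% of neighbours and 20.6% of all genes were higher, and against replicate 2 alone 50.1% and 27.7%. Other limits and fewer libraries change the set by construction. Of 38 alternatives, 24 left counts within 1.5 times or shares within a 95% binomial interval. For the share of juvenile reads that interval treats all 44094069 normalized reads as independent and covers counting error at most. It is very narrow, so that even 2.96% falls outside it. For the other shares the interval treats genes as independent, although they come from the same libraries and some are neighbours. It is a yardstick there and does not measure variation between pools of animals. The last 2 were chosen after seeing the data: without OFUSG10142 to OFUSG10155 the share of higher neighbours was 36.4%, and among neighbours with at least 100 normalized reads in the juvenile it was 36.3%, against 16.0% of all genes at that level. No paired analysis was possible because the juvenile has 1 library and the results come from no test. Variation between juvenile libraries is unknown.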

Other observations

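The switched-on genes were spread over the whole range of gene numbers but not evenly. Among 27 blocks of 1000 consecutive numbers, the median block held 4 of them and the lowest 1, whereas numbers 14000 to 14999 held 16, among them OFUSG14382 and the runs that begin at OFUSG14186, OFUSG14883 and OFUSG14969. The block limits were arbitrary, and no test was made.

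Genes that were listed at 0 in both competent larva libraries were not among the switched-on genes and had low juvenile values. Altogether 33 such genes exceeded 2 normalized reads in the juvenile and 9 reached at least 10. The highest was OFUSG04962 with 463 in the juvenile, followed by OFUSG18141 with 81.2. Of the 10 genes that met the reverse rule, OFUSG05996 and OFUSG05997 had consecutive numbers. OFUSG05996 had 129 normalized reads in the juvenile, against 10638 and 11155 in competent larva replicates 1 and 2, and OFUSG05997 had 11.3, against 2494 and 3449.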
